A study of Mus musculus with 6 samples.

Results

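The fibroblast growth factor (FGF) signalling genes described here are 10 genes taken by symbol from the 49671 genes counted in each library: the receptor tyrosine kinase genes Fgfr1, Fgfr2, Fgfr3 and Fgfr4, the kinase-less receptor gene Fgfrl1, the ligand genes Fgf1, Fgf2, Fgf7 and Fgf21, and the feedback inhibitor gene Spry4. All 10 were matched to 1 Ensembl identifier each. The cells were mouse induced renal epithelial cells grown to confluency, a fibroblast-derived model of kidney tubule cells made by reprogramming, and carried floxed Pkd1 alleles (strain B6.129S4-Pkd1tm2Ggg/J). The Cre group (Pkd1 -/-, transduced with Cre recombinase) and the Flp group (Pkd1 fl/fl, transduced with Flp recombinase) each held a culture of clones 4, 7 and 21, so that there were 6 libraries, 3 per group. Each clone is a cell line of its own, every culture had been transduced with a recombinase, and no label states that different animals were the source of the clones. The p-values given here therefore measure the spread between these clone pairs.

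FGF ligands bind receptor tyrosine kinases together with heparan sulphate chains on the cell surface, and endocrine ligands such as FGF21 use a klotho protein in place of strong heparan binding. The activated receptor is coupled by adaptor proteins to RAS and the ERK kinases, whose target genes include those of Sprouty proteins, which damp the same pathway. In the developing kidney, FGF signals act in the nephron progenitors and in the branching ureteric bud, and receptor splice forms decide which ligands an epithelium or a mesenchyme can answer. Counts per gene do not separate these splice forms.

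The promoters of the pair of receptor genes whose level was the higher in Cre in every clone are shown because the results below turn on those genes. The windows come from RefSeq on GRCm38.p6 and run from 250 bases before to 50 bases after an annotated start, 5′ to 3′ on the strand of the gene. Fgfr3 has a pair of such windows, chr5:33721474-33721773 and chr5:33722056-33722355, and Fgfr4 has chr13:55152568-55152867, all on the plus strand. Capitals mark the GC box, the letters GGGCGG or CCGCCC on the other strand, and the pair in the other Fgfr3 window overlaps by 1 base.
Fgfr3, first window: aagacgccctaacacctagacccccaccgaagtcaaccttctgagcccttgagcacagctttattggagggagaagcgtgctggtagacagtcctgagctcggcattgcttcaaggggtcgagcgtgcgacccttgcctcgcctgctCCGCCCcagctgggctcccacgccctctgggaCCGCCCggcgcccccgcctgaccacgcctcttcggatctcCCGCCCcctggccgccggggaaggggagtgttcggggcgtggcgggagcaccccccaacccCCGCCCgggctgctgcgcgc
Fgfr3, other window: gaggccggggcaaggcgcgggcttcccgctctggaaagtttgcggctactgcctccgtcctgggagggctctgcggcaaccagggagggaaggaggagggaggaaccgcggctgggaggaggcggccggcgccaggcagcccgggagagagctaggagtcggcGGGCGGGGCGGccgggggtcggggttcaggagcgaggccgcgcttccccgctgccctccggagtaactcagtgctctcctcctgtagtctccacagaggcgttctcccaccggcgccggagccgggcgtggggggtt
Fgfr4: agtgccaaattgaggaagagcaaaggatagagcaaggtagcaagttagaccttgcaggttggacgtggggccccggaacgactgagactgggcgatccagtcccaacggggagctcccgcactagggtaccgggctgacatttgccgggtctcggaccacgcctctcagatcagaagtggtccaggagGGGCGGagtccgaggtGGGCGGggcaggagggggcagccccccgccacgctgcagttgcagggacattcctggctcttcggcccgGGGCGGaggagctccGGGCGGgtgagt
The windows held 4, 2 and 4 GC boxes, where 35.7% of 32851 windows of this length held at least 1. They were made up of G and C to 69.7%, 73.0% and 65.3%, against a median of 52.7% over all windows. The first Fgfr3 window held 1 match to GCGGGGGCG, a form of the site of the zinc-finger factor EGR1, which is found in 2.91% of all windows, and its letters do not overlap the capitals above. None of the 3 windows held the other EGR form GCGTGGGCG (0.612% of all windows), the ETS site CCGGAAG (8.86%) or the HNF1 half-site GTTAAT (7.1%), each searched on both strands. In all, 7 of the 10 genes had a window, and those without are Fgfr1, Fgf1 and Spry4. The windows of Fgfrl1 and Fgf2 also held 1 match each to GCGGGGGCG, and their Cre over Flp ratios shared no direction over the clones. Fgfrl1 held 4 GC boxes at 73.7% G and C, Fgf21 held 3 and Fgf2 held 1, while Fgfr2 and Fgf7 held 0. These motifs were therefore not particular to Fgfr3 and Fgfr4.

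Total gene counts were between 25196120 and 46918341 per library, and a count of 0 allowed up to 0.0632 to 0.121 CPM (counts scaled to library size), a limit that covers counting error only. The targeted gene Pkd1 averaged 123 ± 20.6 CPM over Cre libraries and 198 ± 31.5 over Flp libraries (SD, n = 3), with the Cre culture the lower in every clone, so that the whole-gene counts retained Pkd1 reads in cultures labelled as knockout. Its fitted log2 fold change was -0.69 (SE 0.16). The adjusted p was 0.6065 by edgeR with the clone as a block, and 0.03702 in the authors' deposited table. The edgeR test used below thus did not call the targeted gene itself. Tubule markers summed to 5324 to 6702 CPM in Cre and 5509 to 6874 CPM in Flp libraries, with 11 of 12 above 1 CPM in every library. Of 12 fibroblast markers, which summed to 162 to 316 CPM in Cre and 240 to 343 CPM in Flp, 5 were above 1 CPM in every library: Vim (131 to 282 CPM), Twist1 (15.7 to 26.1), Col1a1 (2.40 to 18.1), Pdgfrb (1.54 to 10.2) and Postn (1.58 to 9.30). The other 7 were below 1 CPM in every library, among them Thy1 at 0 throughout and Col1a2 at 0.0404 CPM or less. Endothelial, blood and collecting duct lists summed to at most 1.80, 6.70 and 2.02 CPM.

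How much of each gene the cells held was set out per length of merged exons and scaled to library size (RPKM). Fgfr4, best known in liver, where it carries the signal of the gut hormone FGF15, was the most abundant of the 10 genes in each of the 6 libraries, at 38.6 ± 4.38 RPKM in Cre and 31.6 ± 3.63 RPKM in Flp (SD, n = 3). Fgfrl1, which binds FGF ligands but lacks the kinase, came next in each library at 12.2 ± 1.46 RPKM in Cre and 13.3 ± 2.52 RPKM in Flp. Fgfr1, the main receptor of mesenchymal cells, followed over all libraries at 6.45 ± 2.72 RPKM in Cre and 7.03 ± 3.89 RPKM in Flp, with Fgfr3 at 4.79 ± 1.90 and 3.22 ± 1.72 RPKM and Spry4 at 3.44 ± 0.606 and 3.60 ± 0.525 RPKM in Cre and Flp. These 3 genes changed places between libraries, and their order did not differ beyond their spread. Fgf2, Fgfr2 and Fgf1 lay lower, at means over all libraries of 0.943, 0.839 and 0.539 RPKM, and also changed places. Fgf21 and Fgf7 were lowest, at 0.164 and 0.0470 RPKM, except in Cre clone 7, where Fgf1 lay below both. With the length of the longest transcript in place of merged exons, Fgfr4 stayed the most abundant in each library, while Fgfr1 was above Fgfrl1 in both cultures of clone 4 and in Flp clone 21. By this length the mean of Fgfr2 (1.96 RPKM) was above that of Fgf2 (1.07 RPKM). In Cre clone 7, Fgf1 (0.112 RPKM) then lay below Fgf21 (0.144 RPKM) but above Fgf7 (0.103 RPKM).

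Among the kinase receptors, Fgfr4 made up most of the message in every library. Its share of the summed RPKM of the 4 receptors was 76.3% ± 2.98 in Cre and 74.0% ± 4.16 in Flp (SD, n = 3). Fgfr1 took 12.9% ± 5.93 in Cre and 16.3% ± 8.51 in Flp, Fgfr3 took 9.31% ± 2.88 and 7.63% ± 4.30, and Fgfr2, the receptor through which FGF7 and FGF10 act on epithelia, took 1.48% ± 0.547 and 2.12% ± 0.127. The shares of the groups overlapped for Fgfr4, Fgfr1 and Fgfr3, and also for Fgfr2, whose share in Cre clone 7 was above the 1.98% of Flp clone 21. By the longest transcript the Fgfr4 share was lower, from 57.9% to 68.3% of the 4 receptors over the libraries.

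**Figure D1:**
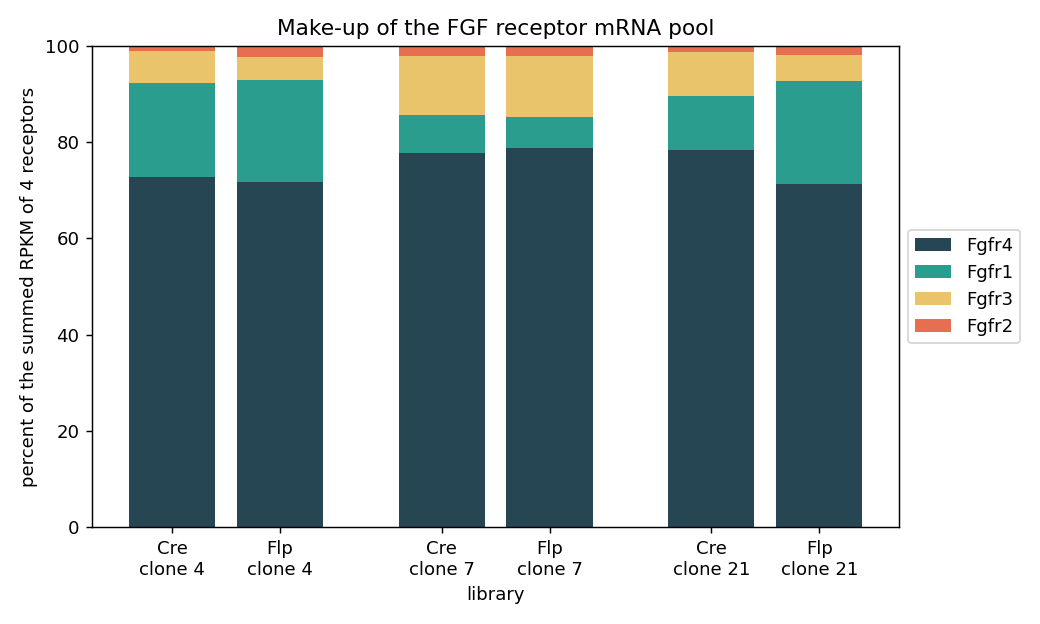
Share of each kinase receptor gene in the summed RPKM (percent, vertical axis) in each library, Cre left of Flp for each clone. Fgfr4 took 71.4% to 78.8% in each library, and the Fgfr1 share was the lowest in both cultures of clone 7, at 7.98% in Cre and 6.47% in Flp.

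The main comparison set each Cre culture against the Flp culture of the same clone, which is how the study paired its samples. None of the 8 genes with enough reads to be tested passed an adjusted p of 0.05 by edgeR's quasi-likelihood test with the clone as a block, and neither did any of the 15355 genes tested (0%). By DESeq2 with the clone block (1.44% of all genes called), by edgeR without a filter on low counts (0.792%) and by limma-voom (0%), 0 of these genes passed as well. None had an adjusted p under 0.05 in the authors' deposited table (1.37% of the genes with an adjusted p there). That table gives no adjusted p for Fgf2. At an unadjusted edgeR p under 0.05 there were 2 of 8, Fgfr3 and Fgf1, where 6.82% of all genes lay, and neither lay there in edgeR without the clone block. The 4 genes with a direction shared by all 3 clones were Fgfr3, Fgfr4, Fgf1 and Spry4, or 50% of the 8, and such a shared direction was seen in 27.7% of all genes tested. Cre was the higher in all 3 clones for Fgfr3 and Fgfr4 (14.6% of all genes) and the lower in all 3 for Fgf1 and Spry4 (13.1%).

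**Figure D2:**
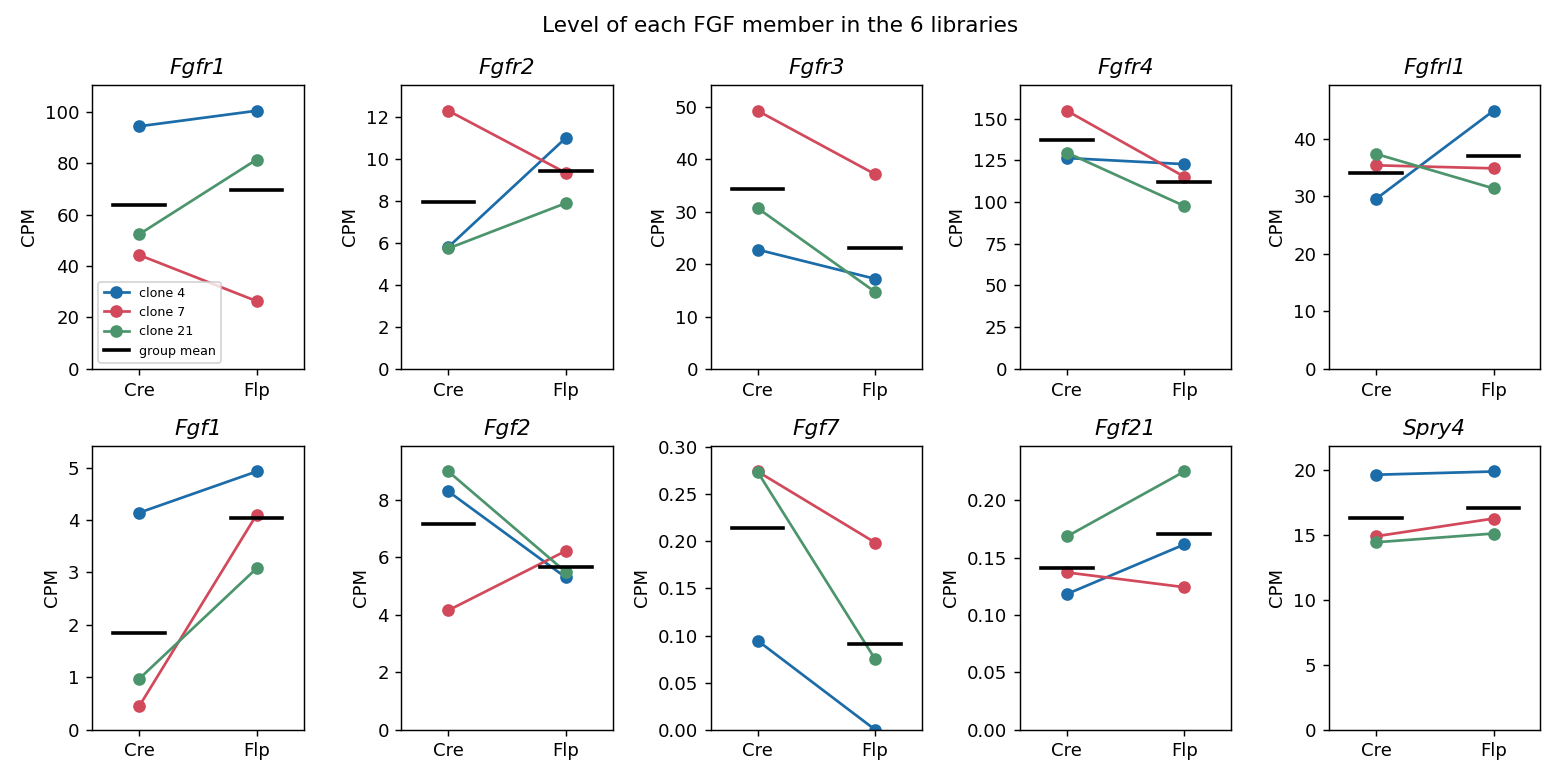
Level of each gene in CPM (vertical axes, each from 0) in Cre and Flp libraries, with a line joining the cultures of a clone and a black bar at the group mean (n = 3). Fgfr4 is the gene among those tested whose Cre values all lie above its Flp values, and Fgf1 is at 0.446 CPM in Cre clone 7, against 4.10 CPM in Flp clone 7.

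Fgfr3 (ENSMUSG00000054252, chromosome 5, 33721674 to 33737068), a receptor best known for restraining bone growth, was at 22.8, 49.3 and 30.7 CPM in Cre clones 4, 7 and 21, and at 17.2, 37.2 and 14.7 CPM in Flp clones 4, 7 and 21. Cre was the higher in each clone, while the groups overlapped because clone 7 was high in both. The fitted log2 fold change was 0.62 (SE 0.18, interval 0.17 to 1.07), with an edgeR adjusted p of 0.6349 (0.1569 to 1 over the settings tried). In clone 21 the Cre culture held 2.08 times the Flp level, and in clones 4 and 7 it held 1.32 and 1.33 times that level. Genes within 5 Mb on each side had medians of 0.01, -0.01 and -0.01 (log2 ratio, clones 4, 7 and 21), so no shift of the neighbourhood went with it. G630022F23Rik, annotated on the other strand, overlaps 13.9% of the Fgfr3 exons and had at most 9 reads of its own in any library. The effect of this overlap on the Fgfr3 counts was not tested. In the authors' deposited table Fgfr3 has a log2 fold change of 0.46 with an adjusted p of 0.2089.

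Fgfr4 (ENSMUSG00000005320, chromosome 13, 55152640 to 55168759) was at 126, 155 and 130 CPM in Cre clones 4, 7 and 21, and at 123, 115 and 97.6 CPM in Flp clones 4, 7 and 21. The groups did not overlap, as was so for 1 of the 8 genes and for 8.13% of all genes tested (4.19% with Cre above Flp). The log2 ratio was 0.04 in clone 4 against 0.43 and 0.41 in clones 7 and 21. The fitted log2 fold change was 0.29 (SE 0.12, interval from just below 0 to 0.59), with an edgeR adjusted p of 0.7327. The counting interval of clone 4 ran from -0.02 to 0.11 and so included no difference. The authors' deposited table gives 0.26 with an adjusted p of 0.5695.

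Fgfr1 (ENSMUSG00000031565, chromosome 8, 25513654 to 25575718) showed no shared direction. It was at 94.4, 44.3 and 52.4 CPM in Cre clones 4, 7 and 21, and at 100, 26.4 and 81.4 CPM in Flp clones 4, 7 and 21. The Cre culture was the higher in clone 7, at a log2 ratio of 0.75, and the lower in clone 21, at -0.64, each beyond counting error, while clone 4 stood at -0.09. The fitted log2 fold change was 0.00 (SE 0.26), with an interval of -0.64 to 0.64 and an edgeR adjusted p of 0.9997, so changes of up to about 1.5-fold in either direction were within the error. Among all genes tested, 9.03% were at least 1.5-fold higher in Cre in some clone and at least 1.5-fold lower in another.

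Fgfr2 (ENSMUSG00000030849, chromosome 7, 130162451 to 133123350) was at 5.80, 12.3 and 5.73 CPM in Cre clones 4, 7 and 21, and at 11.0, 9.32 and 7.88 CPM in Flp clones 4, 7 and 21. Cre was the lower in clones 4 and 21 and the higher in clone 7, and the fitted log2 fold change was -0.33 (SE 0.31, interval -1.09 to 0.44, edgeR adjusted p = 0.9247). It was -0.03 without clone 4 and -0.69 without clone 7. Its annotated span reaches into Ctbp2, with which it shares 314 bases of exon. Fgfrl1 (ENSMUSG00000008090, chromosome 5, 108692382 to 108706924) was at 29.5, 35.4 and 37.3 CPM in Cre clones 4, 7 and 21, and at 44.8, 34.8 and 31.3 CPM in Flp clones 4, 7 and 21. Its clone ratios ran from -0.60 in clone 4 over 0.02 in clone 7 to 0.25 in clone 21, and the fitted value was -0.11 (SE 0.19, interval -0.58 to 0.37, edgeR adjusted p = 0.9724). Without clone 4 the fitted value of Fgfrl1 was 0.14.

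**Figure D3:**
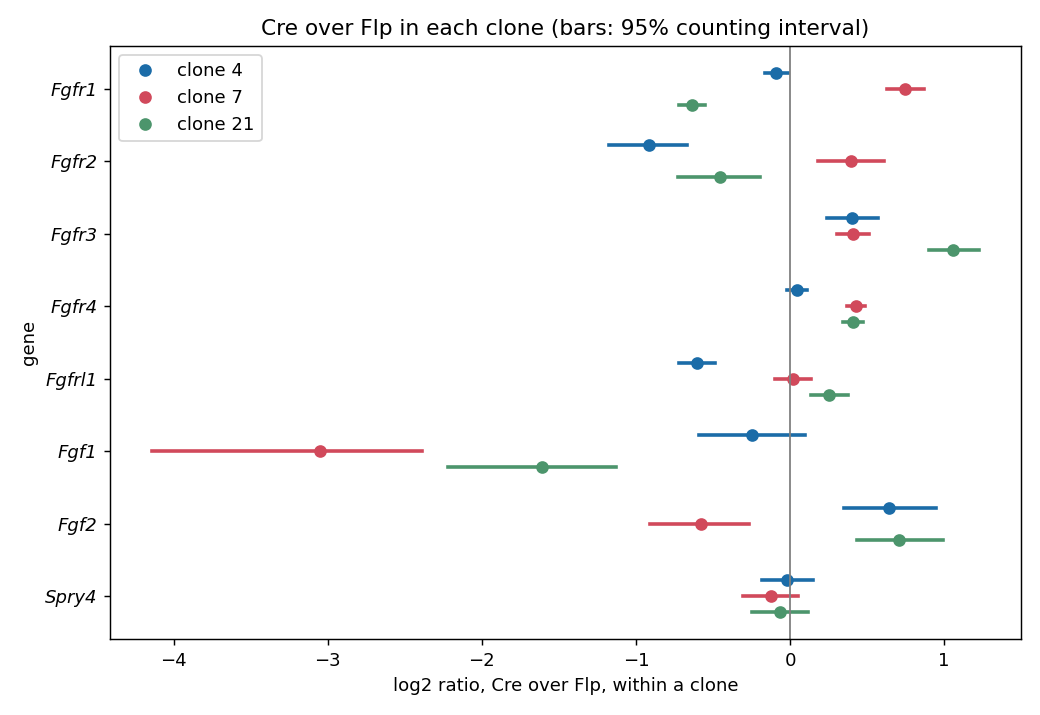
Log2 ratio of Cre over Flp within each clone (horizontal axis) for the 8 genes tested, one colour per clone, with a bar for the 95% interval of counting error. Fgfr3 lies right of 0 in each clone and Fgf1 left of it, while Fgfr1, Fgfr2 and Fgf2 have clone 7 on one side and clone 21 on the other.

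Of the pair of ligand genes with enough reads to be tested, Fgf1 spanned 11.1-fold from its lowest to its highest library and Fgf2 spanned 2.16-fold. Fgf1 (ENSMUSG00000036585, chromosome 18, 38838673 to 38929472) encodes a ligand that binds every FGF receptor and is released without a signal peptide. It was at 4.14, 0.446 and 0.969 CPM in Cre clones 4, 7 and 21, from 175, 13 and 46 reads, and at 4.93, 4.10 and 3.08 CPM in Flp clones 4, 7 and 21, from 122, 165 and 82 reads. With 2 reads added as a prior, Cre was the lower by 8.27-fold in clone 7 and by 3.06-fold in clone 21, while the log2 ratio was -0.25 in clone 4, whose counting interval of -0.59 to 0.09 included no difference. The fitted log2 fold change was -1.62 (SE 0.60, interval -3.10 to -0.13), with an edgeR adjusted p of 0.6864 (0.1126 to 1 over the settings tried). Without clone 7 the value was -0.93, and without clone 4 it was -2.38. Neighbouring genes had medians of 0.04, 0.00 and -0.02 in clones 4, 7 and 21. The authors' deposited table lists Fgf1 at -0.38 (SE 0.20) with an adjusted p of 0.6033. DESeq2 with the clone block gave -1.65 here, at a close mean normalised count (98.1 in the authors' table, 99.9 here). The sizes of these fold changes may therefore not be like measures, and the reason was not tested.

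Fgf2 (ENSMUSG00000037225, chromosome 3, 37348346 to 37410108), a mitogen of fibroblasts and endothelium, was at 8.28, 4.15 and 8.97 CPM in Cre clones 4, 7 and 21, and at 5.29, 6.21 and 5.48 CPM in Flp clones 4, 7 and 21. Cre was the higher in clones 4 and 21 and the lower in clone 7, each beyond counting error, and the fitted log2 fold change was 0.27 (SE 0.34, interval -0.57 to 1.10, edgeR adjusted p = 0.9481). It was 0.07, 0.68 and 0.03 without clones 4, 7 and 21. The level of this gene depends on the source. The authors' deposited table lists a mean normalised count of 10.4 for Fgf2, where the count files gave 217, and 111 for Nudt6, where the count files gave 48.3. Nudt6 is transcribed from the other strand and its exons share 640 bases with those of Fgf2, or 9.44% of the Fgf2 exons. How reads of this pair were assigned in each source, and why the means differ, was not tested. Of the other 9 genes, Fgf7 had means of 4.01 in the authors' deposited table and 5.18 in the count files, Fgfr1 had 2070 and 2256, and the rest lay closer together.

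Fgf7 and Fgf21 had too few reads to be tested. Fgf7 (ENSMUSG00000027208, chromosome 2, 126034658 to 126091185), the keratinocyte growth factor made by mesenchyme for epithelia, had 4, 8 and 13 reads in Cre clones 4, 7 and 21, and 0, 8 and 2 reads in Flp clones 4, 7 and 21. Each clone's ratio was within counting error, and the count of 0 in Flp clone 4 allowed up to 0.121 CPM. Expressed genes within 5 Mb of Fgf7 had medians of 0.08, -0.05 and -0.50 (log2 ratio, clones 4, 7 and 21). Fgf21 (ENSMUSG00000030827, chromosome 7, 45613886 to 45615490), a hormone of liver and stressed cells that signals through beta-klotho, had 5, 4 and 8 reads in Cre clones 4, 7 and 21, and 4, 5 and 6 reads in Flp clones 4, 7 and 21. Levels this low lie near the limits given by a count of 0, and no difference was detectable at this depth.

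Spry4 (ENSMUSG00000024427, chromosome 18, 38586247 to 38601415), a Sprouty gene that is switched on by ERK and damps receptor signalling, varied least of the 8 tested genes. It was at 19.7, 14.9 and 14.5 CPM in Cre clones 4, 7 and 21, and at 19.9, 16.3 and 15.1 CPM in Flp clones 4, 7 and 21, a range of 1.38-fold from lowest to highest library. Cre was the lower in each clone, at log2 ratios of -0.02, -0.13 and -0.07, each within counting error. The fitted log2 fold change was -0.07 (SE 0.16, interval -0.46 to 0.32, edgeR adjusted p = 0.9779), which leaves room for a change of that size in either direction. Both clone 4 cultures lay above the other 4.

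The next comparison set the clones against each other. Clone 7 was the lowest for Fgfr1 and the highest for Fgfr3 in both Cre and Flp cultures. Mean levels of Fgfr1 were 97.4, 35.3 and 66.9 CPM in clones 4, 7 and 21, and those of Fgfr3 were 20.0, 43.2 and 22.7 CPM. Clone 7 lay below clone 4 by a log2 difference of -1.46 (SE 0.32) for Fgfr1 and above it by 1.11 (SE 0.22) for Fgfr3. Clones 21 and 4 differed by 0.12 (SE 0.22) for Fgfr3, which lay within the error, and their order was not the same in Cre and Flp cultures. In edgeR's test of the clone terms, 0 of the 8 genes passed, with adjusted p of 0.4761 for Fgfr1 and 0.3533 for Fgfr3, and 1 of 15355 genes did (0.00651%). Both lay under an unadjusted p of 0.05, as did 8% of all genes, and limma-voom called 0 genes (0%). Fgfr1 and Fgfr3 passed with DESeq2 (adjusted p = 0.003556 and 0.001258, with 2.86% of all genes called) and with edgeR unfiltered (0.001226 and 0.007562, with 1.83% called). Fgfr4, Fgfrl1, Fgf2 and Fgfr2 had clone ranges of 0.25, 0.10, 0.42 and 0.71 on the log2 scale and adjusted p of 0.824 or more by edgeR, with Fgf1 at 1.62 (adjusted p = 0.7192) and Spry4 at 0.42 (adjusted p = 0.7703). In bulk RNA, fewer cells with a transcript and less transcript per cell cannot be told apart.

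The genes whose pattern over the 6 libraries was most like that of Fgfr3, out of 10741 whose mean reached 5 CPM, included the phosphatase gene Ppm1h and Met, the receptor gene of hepatocyte growth factor. Their centred log2 levels differed from those of Fgfr3 by a root mean square of 0.13 and 0.15. Met was at 7.85, 15.1 and 9.35 CPM in Cre clones 4, 7 and 21, and at 5.86, 15.3 and 5.55 CPM in Flp clones 4, 7 and 21. For Spry4 the closest were Stx1a, Tcaf2 and Nsmf, at root mean squares of 0.04, 0.04 and 0.05, where the log2 level of Spry4 itself had an SD of 0.20 over the libraries against 0.67 for Fgfr3.

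The remaining genes of the pathway were taken from 6 lists. Of 64 genes tested, 0 passed edgeR's test in either direction or DESeq2's with the clone block, 1 passed in edgeR without a filter, and 6 lay under an unadjusted p of 0.05. Over all genes those shares were 0% in edgeR, 1.44% in DESeq2, 0.792% in unfiltered edgeR and 6.82% under the unadjusted p. The median log2 fold change of all genes tested was 0.00, with 50.7% of them above 0. Other ligands had 4 of 18 members with enough reads, and the 4 had a median of 0.48, each above 0. The median was 0.94, 0.36 and 0.33 without clones 4, 7 and 21, and 0.33 without Fgf9, the member on chromosome 14. Within clones 4, 7 and 21 the median ratio was -0.05, 0.56 and 0.77. In clone 4, Fgf10 (-0.81) and Fgf11 (-0.12) were the lower in Cre. Fgf18 had the smallest p among them. It averaged 7.27 ± 2.72 CPM over Cre libraries and 3.43 ± 1.02 over Flp libraries (SD, n = 3), and its log2 fold change was 1.04 (SE 0.39, edgeR adjusted p = 0.6954). In clones 4, 7 and 21 its ratios were 0.40, 0.70 and 2.03. Fgf9, a ligand that keeps nephron progenitors alive, averaged 18.8 ± 7.45 CPM over Cre libraries and 11.7 ± 1.95 over Flp libraries, and its clone ratios were 0.01 (clone 4), 0.40 (clone 7) and 1.46 (clone 21). Fgf9 lies on chromosome 14, where 283 expressed genes beyond 30 Mb had medians of 0.11, 0.81 and 0.75 in clones 4, 7 and 21, and the part of that shift in the Fgf9 value was not tested.

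Among the 9 feedback inhibitors tested, the median was 0.33, with 6 above 0 and 3 below. It was 0.59 without clone 4 and 0.09 without clone 7. Spry2, the sister gene of Spry4, averaged 9.36 ± 4.19 CPM over Cre libraries and 4.16 ± 0.666 over Flp libraries (SD, n = 3), for a log2 fold change of 1.07 (SE 0.32, edgeR adjusted p = 0.6435) with clone ratios of 0.31, 1.34 and 1.50. It too lies on chromosome 14, and expressed genes within 5 Mb of it had medians of 0.10, 0.93 and 1.05 in clones 4, 7 and 21. Il17rd, an inhibitor at the receptor, shares this chromosome and had a value of 0.65 with clone ratios of 0.03, 0.46 and 1.48. Without these genes of chromosome 14, 4 of 7 inhibitors were above 0 and the median was 0.32. Dusp6, an ERK phosphatase on chromosome 10, averaged 194 ± 58.5 CPM over Cre libraries and 136 ± 44.6 over Flp libraries (SD, n = 3), with clone ratios of -0.12, 1.13 and 0.59, and Dusp4, a related phosphatase, stood at -0.38.

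ERK target genes had a median of -0.08, with 5 above 0 and 5 below. Egr1, an immediate early transcription factor gene, averaged 315 ± 76.6 CPM over Cre libraries and 197 ± 29.6 over Flp libraries (SD, n = 3), for a log2 fold change of 0.66 (SE 0.22) with an edgeR adjusted p of 0.6674. Its groups did not overlap, but its clone 4 ratio was 0.05 against 1.20 and 0.72 in clones 7 and 21, and of the settings tried it passed in the unfiltered edgeR fit alone (adjusted p = 0.042). The ETS factor genes Etv4 and Etv5, commonly read as FGF targets, stood at -0.42 (SE 0.19) and -0.29 (SE 0.25). Their edgeR adjusted p were 0.7496 and 0.9122. In clones 4, 7 and 21 the ratios of Etv4 were -0.38, -0.05 and -0.83. Those of Etv5 were -0.81, 0.18 and -0.21, so its clones shared no direction. Etv1, another ETS factor gene of this list, averaged 0.693 ± 0.180 CPM over Cre libraries and 1.24 ± 0.408 over Flp libraries (SD, n = 3). Its log2 fold change was -0.82 (SE 0.37, edgeR adjusted p = 0.7594), with clone ratios of -0.60, -1.01 and -0.70.

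Co-receptors and carriers had a median of -0.24 over 12 of 16 members, 8 of them below 0, and one of -0.02 when members with few reads were not filtered out. Sdc4, a heparan sulphate proteoglycan of the cell surface, averaged 422 ± 11.5 CPM over Cre libraries and 576 ± 105 over Flp libraries (SD, n = 3), and its log2 fold change was -0.43 (SE 0.13, edgeR adjusted p = 0.6455). Its clone ratios were -0.36, -0.22 and -0.71, and its neighbours on chromosome 2 had medians of 0.00, 0.03 and -0.55 in clones 4, 7 and 21. The klotho gene Kl averaged 1.80 ± 1.15 CPM over Cre libraries and 1.82 ± 2.22 over Flp libraries, with clone ratios of 1.75 (clone 4), -0.53 (clone 7) and 0.19 (clone 21). Expressed genes within 5 Mb of Kl, on chromosome 5, had medians of 1.002, 0.10 and -0.03 in clones 4, 7 and 21. Klb, the co-receptor of FGF21, had too few reads to be tested. Heparan sulphate enzymes had a median of -0.09 over 10 members, with the sulphotransferase Hs6st2 at 149 ± 14.3 CPM over Cre libraries and 184 ± 10.0 over Flp libraries, the lower in Cre in each clone (log2 fold change -0.30, SE 0.10, edgeR adjusted p = 0.6738). The 19 adaptors and RAS and ERK cascade genes stood closest together, with a median of -0.04 and values from -0.19 to 0.28, and Nras had the smallest p among them, at 0.20 (SE 0.10, edgeR adjusted p = 0.8251).

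**Figure D4:**
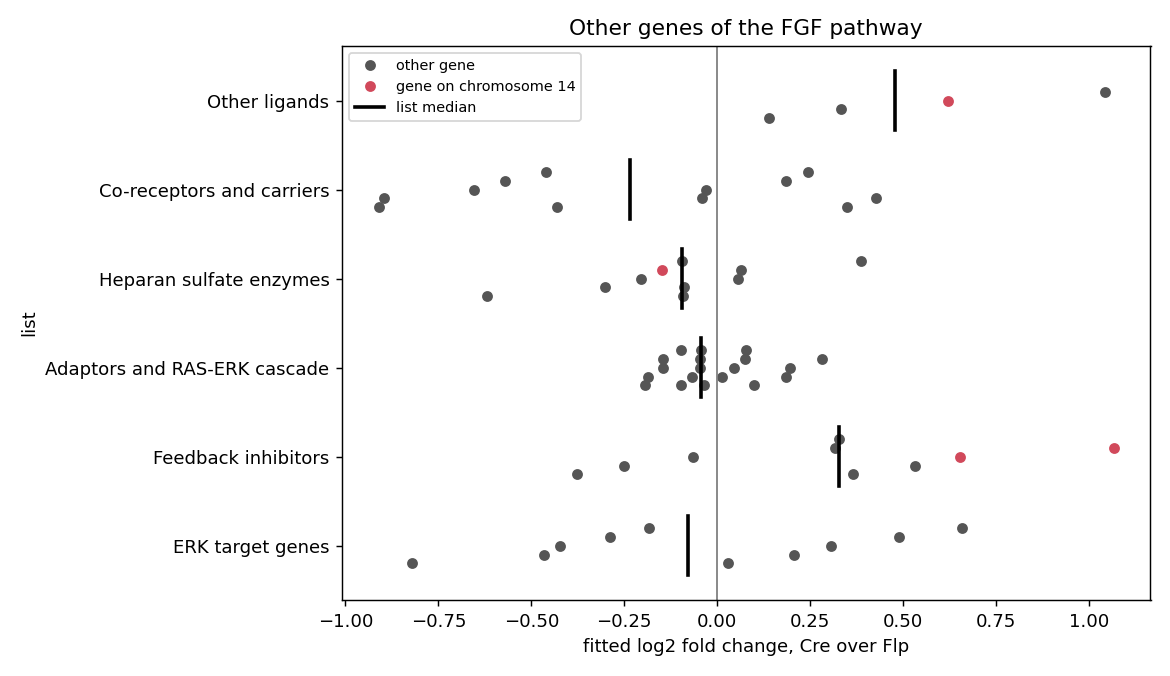
Fitted log2 fold change of Cre over Flp (horizontal axis) for each tested gene of the 6 pathway lists, with the list median as a black bar and genes of chromosome 14 in red. The adaptors and RAS and ERK cascade genes span -0.19 to 0.28, while the feedback inhibitors span -0.38 to 1.07, with Spry2 at the upper end.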

How the data were processed

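The submitters' processing notes name featureCounts (1.6.0.3), the aligner STAR (2.5.2b-2) and DESeq2 (2.11.40.1), beside Trim Galore (0.4.3.0) and FastQC (0.67), and the builds GRCm38 and mm10. The sources used here give neither the strand setting nor the annotation. For each library the authors deposited a file of raw counts, unnormalised, by Ensembl gene, and a comparison table with a mean normalised signal, a log2 fold change, its standard error and a test score, a p-value and an adjusted p-value. Positive values there were read as higher in Cre, as 95.6% of signs matched. Whether the sizes of its fold changes are on the scale of those fitted here was not tested.

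Symbols, positions and lengths came from GENCODE M21 (GRCm38), which held 49326 of the 49671 identifiers. In R 4.3.3, edgeR 4.0.16 was fitted to genes passing filterByExpr, with TMM factors and the clone as a block (2 residual degrees of freedom). P-values were two-sided and adjusted by Benjamini-Hochberg over all genes tested. CPM used TMM-scaled library sizes, clone ratios a prior count of 2, and their intervals are exact binomial ones (95%) for counting error only. Alternatives used DESeq2 1.42.0, limma 3.58.1 (voom), other normalisations and filters, no block, and 2 of the 3 clones. Figures used matplotlib 3.10.9.

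The clone block follows the study's design; the deviations of its 2 cultures from their group means correlated at 0.20 (clone 4), 0.11 (clone 7) and 0.30 (clone 21). Genes and lists were chosen with earlier results of these data known. The naming rule took all 10 genes, the member of each pathway list with the smallest p, and the 3 genes most alike in pattern to Fgfr3 (smallest p) and to Spry4, of which 1 is not reported here. Fgf9, Il17rd, Dusp6, Dusp4, Etv1, Etv4, Etv5, Kl and Klb were named after their values were seen.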

Additional observations from a re-analysis of the deposited data

Results flagged for a closer look

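Fgfr1 differed in direction between clones. Cre was above Flp in clone 7, at a log2 ratio of 0.75, and below it in clone 21, at -0.64, each by at least 1.5-fold and beyond counting error. With 1 library per clone and genotype the difference between the clones was not tested, and 9.03% of all genes tested had opposite ratios of that size.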

How the results depend on the processing

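The number of the 8 tested genes called between Cre and Flp was 0 in each of the settings run: 3 other normalisations, 2 other filters, DESeq2 and limma-voom with the clone block, edgeR and DESeq2 without the replicate block, a threshold of 0.1 and leaving out each clone (lowest and highest count 0). No call could be lost by dropping the block, since 0 were made with it. Without the replicate block the unadjusted edgeR p was 0.2 for Fgfr3 and 0.164 for Fgf1, against 0.0149 and 0.0374 with it, so neither lay under 0.05. Between clones, 2 genes (Fgfr1 and Fgfr3) were called with DESeq2 and 2 in the unfiltered edgeR fit, against 0 by edgeR with the filter, and the cause was not tested. Of the ERK target genes, 1 (Egr1) was called in the unfiltered edgeR fit. The Fgfr1 value lay at 0.00 and its sign turned in 6 fits of all clones: -0.00074 with RLE factors, -0.0044 with the upper quartile, -0.0014 with the filter at 1 CPM, -0.063 with limma-voom and, without the replicate block, -0.12 in edgeR and -0.12 in DESeq2. Leaving out each clone gave -0.36 to 0.32 for Fgfr1 and -0.29 to 0.14 for Fgfrl1. The medians of heparan sulphate enzymes, adaptors and ERK targets, which lay near 0, were 0.00, 0.00 and 0.03 without clone 4. That of the adaptors was 0.02 without clone 21. With all clones kept, the ERK target median was 0.025 with the filter at a mean of 1 CPM, against -0.08 with filterByExpr. Leaving out chromosome 14 was chosen after seeing the data. With 2 residual degrees of freedom and at most 13 reads for Fgf7 and 8 for Fgf21, small differences were beyond these libraries.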
